A study of Mus musculus with 6 samples.

Results

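The Wnt pathway targets and receptors described here are 10 genes, namely Axin2, Lgr4, Lgr5, Nkd1, Notum, Tcf7, Lef1, Rnf43, Znrf3 and Apcdd1. They were taken by name from the 54532 genes of the count table, and all 10 were present. RNA had been sequenced from tumour cells of untreated Balb/c mice that carried 2208L, a transplantable mouse mammary tumour. The group called CTC held 3 libraries of tumour cells that had circulated in blood and were then propagated, and the group called PT comprised 3 libraries of tumour cells enriched from dissociated primary tumours. The titles match each PT library to the CTC library of the same number, and the series design text says that the blood came from the matched mice. All 6 libraries derive from the single tumour 2208L, only the CTC cells are described as propagated, and no agent separates the groups, so origin and handling cannot be told apart. The sources used here give neither the age of the mice nor how the PT cells were enriched. Library totals were 27897320, 24496217 and 23951093 counts in CTC replicates 1, 2 and 3 and 27371166, 23845953 and 23874946 counts in PT replicates 1, 2 and 3. Levels are given in CPM, read counts scaled to library size by the TMM method, and 3 counts, taken as the detection floor, correspond to between 0.106 and 0.129 CPM per library. The floor covers counting error only. The epithelial identity of the cells was visible in both groups. Together, 12 epithelial markers gave 3140 to 9035 CPM per CTC library and 5941 to 7556 CPM per PT library. Stromal markers were lower and uneven. Totals for 12 fibroblast markers, in replicate order, were 11.59, 84.89 and 202.9 CPM for CTC and 93.56, 20.1 and 64.81 CPM for PT. The fibroblast peak, CTC replicate 3, had the lowest epithelial total. For 12 endothelial markers no CTC library exceeded 6.665 CPM and no PT library fell below 7.79 CPM. Egfl7 made up 61.4% of the endothelial counts. The part of stromal cells in the levels below was not tested.

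Wnt ligands bind Frizzled receptors with the co-receptors Lrp5 and Lrp6, which stops the destruction complex of Axin, Apc and Gsk3 from marking beta-catenin for degradation. Stabilised beta-catenin enters the nucleus and activates genes through the DNA-binding factors of the Tcf/Lef family. Several of the genes so activated feed back on the pathway: Axin2 rebuilds the destruction complex, Nkd1 acts on Dishevelled, Notum strips the lipid from Wnt ligands outside the cell, Apcdd1 is a membrane inhibitor, and the ubiquitin ligases Rnf43 and Znrf3 clear Frizzled from the surface. R-spondins bind Lgr4, Lgr5 or Lgr6 and remove these ligases, which raises Wnt sensitivity. In the mammary gland the pathway is known for its part in basal stem cells and, when overactive, in tumours.

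The starts of Axin2 and Lgr4 are shown because Axin2 is the most widely used reporter of the pathway and was scarce here, while Lgr4 was the member whose groups did not overlap. Each sequence is the RefSeq window of 300 bases, from 250 bases before to 50 after the annotated start, on the plus strand of GRCm38.p6, at chr11:108920099-108920398 for Axin2 and chr2:109917397-109917696 for Lgr4. Capitals mark matches to the CCAAT box (CCAAT or its reverse complement ATTGG).
Axin2: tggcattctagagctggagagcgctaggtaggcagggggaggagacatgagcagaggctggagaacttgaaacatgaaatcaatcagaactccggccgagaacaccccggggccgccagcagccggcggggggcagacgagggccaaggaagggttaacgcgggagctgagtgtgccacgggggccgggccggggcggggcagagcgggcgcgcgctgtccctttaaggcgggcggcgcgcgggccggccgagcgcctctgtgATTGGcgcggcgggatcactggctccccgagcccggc
Lgr4: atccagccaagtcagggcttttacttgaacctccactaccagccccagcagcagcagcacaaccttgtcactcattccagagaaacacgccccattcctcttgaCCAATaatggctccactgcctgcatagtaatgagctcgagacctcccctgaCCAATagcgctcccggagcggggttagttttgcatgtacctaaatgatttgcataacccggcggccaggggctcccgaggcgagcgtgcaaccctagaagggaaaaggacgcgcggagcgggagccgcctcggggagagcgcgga
Axin2 held 1 CCAAT box, just inside the transcribed part, and Lgr4 held 2, both before the start. A CCAAT match was present in 37.4% of 32851 RefSeq promoter windows of the same length. The Tcf/Lef letters CTTTGAT or CTTTGAA, searched on both strands, were present in 8.65% of those windows. They were found in none of the 11 windows of the 6 members read here (Axin2, Lgr4, Nkd1, Tcf7, Lef1 and Rnf43), which says only that these letters are not in these windows. Both motifs were chosen after the windows had been read.

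The members spanned a range from abundant to undetectable transcripts. Per kilobase of deposited gene length, the mean over the 6 libraries was 24.5 CPM per kb for Notum, 12.2 for Tcf7, 8.59 for Lgr4, 1.84 for Znrf3, 0.977 for Rnf43, 0.622 for Apcdd1 and 0.252 for Axin2. Lef1 was at 0.0296, Lgr5 at 0.0112 and Nkd1 at 0.0014 CPM per kb. Of the 13874 genes tested, 81.5% had a lower level per kilobase than Notum, 68.0% than Tcf7 and 60.1% than Lgr4, but only 5.87% had a lower one than Axin2. The ranges of Notum (8.69 to 49.9 CPM per kb), Tcf7 (8.27 to 17.6) and Lgr4 (2.89 to 11.8) over the libraries overlapped. Within each library, however, Notum lay above both Tcf7 and Lgr4. Tcf7 lay above Lgr4 in every library except PT replicate 1. Lgr4 lay above Znrf3 (1.25 to 2.73 CPM per kb) in every library. In range, Znrf3 overlapped Rnf43 (0.21 to 1.55), and Rnf43 overlapped Apcdd1 (0 to 1.35) and Axin2 (0.0605 to 0.708). Within each library Znrf3 was above Rnf43, and Rnf43 was above Axin2. The deposited length is 1 value per gene, so a different mix of isoforms would change these values.

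**Figure D1:**
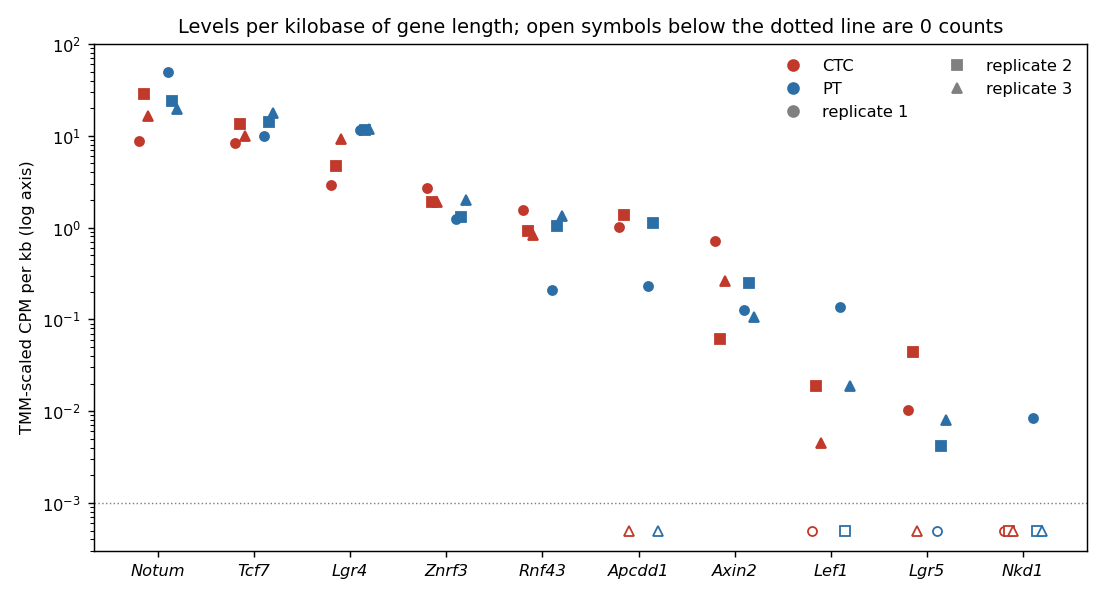
TMM-scaled CPM per kilobase of gene length (log axis) for the 10 genes, ordered by their mean over the 6 libraries; each symbol is 1 library, red for CTC and blue for PT, with the shape giving the replicate. Notum, Tcf7 and Lgr4 lie at or above 2.89 CPM per kb, Axin2 stays at or below 0.708, and open symbols mark libraries with 0 counts.

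No member passed the test between CTC and PT across all genes. A filter on low counts kept 7 of the 10 members and left out Lgr5, Lef1 and Nkd1, which are described by their counts. edgeR's quasi-likelihood test called 0 of the 7 at an adjusted p under 0.05, and it called 0% of all 13874 genes. At an unadjusted p under 0.05 it gave 1 of the 7, Lgr4 (lower in CTC), beside 6.62% of all genes (3.32% higher and 3.31% lower in CTC), and with the replicate block the share of all genes was 6.51%, with Lgr4 again the 1 member. DESeq2 called 0 members beside 0.631% of the genes with an adjusted p (0.298% higher and 0.333% lower in CTC), and with the replicate number as a block it called 0 members beside 1.87% (0.878% higher and 0.989% lower). limma-voom also called 0 members and 0% of genes. The CTC and PT ranges did not overlap for 1 of the 7, again Lgr4, beside 12.1% of all genes tested (5.95% higher and 6.16% lower in CTC). Among the 7, 4 had a positive and 3 a negative log2 fold change (CTC minus PT), with a median of 0.35, where the median over all genes tested was 0.05. Because the RNA came from bulk samples, fewer cells of a type and less RNA per cell cannot be told apart in any of these values.

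**Figure D2:**
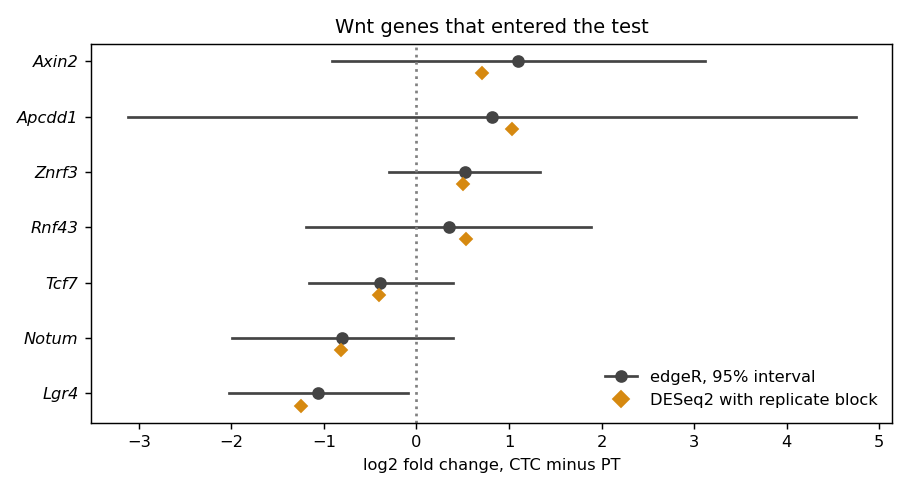
Log2 fold change, CTC minus PT, of the 7 genes that entered the test. Circles are edgeR estimates with 95% intervals from 3 CTC and 3 PT libraries, and diamonds are DESeq2 estimates with the replicate block. The unadjusted interval excludes 0 for Lgr4 (-2.03 to -0.09) and spans it for the other 6.

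Of the R-spondin receptors, Lgr4 was abundant and Lgr5 was nearly silent. Lgr4 (ENSMUSG00000050199, chromosome 2, 109917647 to 110014257, plus strand, GRCm38) measured 17.0, 27.5 and 53.8 CPM across CTC replicates 1, 2 and 3, against 68.1, 67.3 and 69.6 CPM across PT replicates 1, 2 and 3. The 3 PT libraries were nearly level, while the CTC libraries were spread out and each lay below every PT library. Lgr4 averaged 32.8 ± 19.0 CPM over CTC against 68.3 ± 1.17 CPM over PT (SD, n = 3 each), 0.48 times the PT level. On the log2 scale the SD of Lgr4 was 0.83 in CTC and 0.02 in PT. The medians for the 500 tested genes of nearest mean level were 0.37 in CTC and 0.39 in PT. The log2 fold change was -1.06 (SE 0.42), with an edgeR adjusted p of 0.726, or 0.766 once blocked by replicate, and a DESeq2 adjusted p of 0.482, or 0.125 once blocked. CTC lay below PT in 3 of 3 matched pairs. PT levels were 4.01 times the CTC level in pair 1, 2.44 times in pair 2 and 1.29 times in pair 3. Without CTC replicate 3 the log2 fold change was -1.62, and without CTC replicate 1 it was -0.75. Lgr5 (chromosome 10, 115450311 to 115587780, minus strand), a marker of stem cells in several epithelia, had 3, 11 and 0 counts in CTC and 0, 1 and 2 counts in PT. In Lgr5 only CTC replicate 2 exceeded the floor, at 0.458 CPM, so no fold change is given. Lgr6, the third receptor of the family, averaged 12.0 ± 9.08 CPM over CTC against 21.6 ± 19.5 CPM over PT (SD, n = 3 each), with an edgeR adjusted p of 0.792.

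The ubiquitin ligases Znrf3 and Rnf43, which remove Frizzled receptors, were both detected in every library. Znrf3 (chromosome 11, 5276324 to 5444847, minus strand) measured 21.5, 15.1 and 14.8 CPM across CTC, against 9.84, 10.3 and 15.7 CPM across PT. Only PT replicate 3 reached into the CTC range. Its means were 17.1 ± 3.82 CPM over CTC against 12.0 ± 3.25 CPM over PT (SD, n = 3 each), with a log2 fold change of 0.52 (SE 0.35, edgeR adjusted p = 0.752). Rnf43 (chromosome 11, 87662722 to 87735539, plus strand) measured 10.1, 5.995 and 5.39 CPM across CTC, against 1.38, 6.77 and 8.79 CPM across PT. The groups overlapped, and PT replicate 1 stood well below the other 5 libraries. Rnf43 averaged 7.18 ± 2.58 CPM over CTC against 5.64 ± 3.83 CPM over PT (SD, n = 3 each), with a log2 fold change of 0.35 (SE 0.67, edgeR adjusted p = 0.898). Without PT replicate 1 the sign turned, to -0.12. Within pair 1 the CTC level of Rnf43 was 7.36 times the PT level, while in pairs 2 and 3 it was 0.885 and 0.614 times.

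Of the extracellular and membrane inhibitors, Notum had the highest mean level of all 10 genes and Apcdd1 was at 0 counts in replicate 3 of both groups. Notum (ENSMUSG00000042988, chromosome 11, 120653788 to 120661175, minus strand), a secreted deacylase of Wnt ligands, measured 20.9, 68.7 and 39.2 CPM across CTC, against 120.2, 57.6 and 46.8 CPM across PT. The highest and lowest libraries were PT replicate 1 and CTC replicate 1, a matched pair, and the groups overlapped. The means were 42.9 ± 24.1 CPM over CTC against 74.9 ± 39.6 CPM over PT (SD, n = 3 each), a log2 fold change of -0.80 (SE 0.51, edgeR adjusted p = 0.743). It was -0.27 without PT replicate 1, and 0.06 without replicate 1 of both groups. The antisense genes Notumos and Myadml2os overlap Notum and had 369 and 66 counts over all libraries beside 8858 for Notum. The sources used here do not say whether reads were counted by strand, so their counts and those of Notum cannot be told apart. The 40 tested genes nearest to Notum, over 0.868 Mb, had a median log2 deviation of 0.53 in PT replicate 1, where Notum itself deviated by 1.23. What the neighbours contribute to its level was not tested.

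Apcdd1 (chromosome 18, 62922327 to 62953195, plus strand), which binds Wnt and its co-receptors, had 81, 91 and 0 counts in CTC replicates 1, 2 and 3 and 17, 73 and 0 counts in PT replicates 1, 2 and 3. Both libraries of replicate 3 were at 0, which allows up to 0.117 CPM for CTC and up to 0.124 CPM for PT, and all 4 libraries of replicates 1 and 2 were above the floor. In those libraries the levels were 2.87 and 3.79 CPM across CTC, against 0.651 and 3.13 CPM across PT. The log2 fold change over all libraries was 0.82 (SE 1.70, edgeR adjusted p = 0.906), with an interval from -3.12 to 4.75. It was 2.72 without PT replicate 2 and 0.18 without CTC replicate 2. Its SD on the log2 scale was 3.13 in CTC and 2.69 in PT. The 500 tested genes of nearest mean level had medians of 0.74 in CTC and 0.78 in PT. Genes around Apcdd1 were not low in both of these libraries: the median deviation of its 40 tested neighbours was 0.09 in CTC replicate 3 and 0.30 in PT replicate 3. Wnt7a, a ligand gene, was also scarce in replicate 3 of both groups. It measured 31.3, 36.3 and 0 CPM across CTC, against 4.13, 10.8 and 0.249 CPM across PT.

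The intracellular feedback genes Axin2 and Nkd1 were low. Axin2 (ENSMUSG00000000142, chromosome 11, 108920349 to 108950783, plus strand) had 110, 8 and 37 counts in CTC and 18, 32 and 14 counts in PT. In CPM this was 3.90, 0.333 and 1.44 in CTC and 0.689, 1.37 and 0.580 in PT. CTC replicate 1 was the highest library and CTC replicate 2 the lowest, so the PT libraries lay inside the CTC range. The means were 1.89 ± 1.82 CPM over CTC against 0.880 ± 0.429 CPM over PT (SD, n = 3 each). The log2 fold change was 1.10 (SE 0.87, edgeR adjusted p = 0.782), and without CTC replicate 1 it was 0.01. Nkd1 (chromosome 8, 88521354 to 88594884, plus strand) had 0 counts in the 3 CTC libraries and 1 count over the 3 PT libraries, so it was not detectable at this depth in either group. Its relative Nkd2 was expressed, with 6.49, 6.08 and 217.6 CPM across CTC, against 26.9, 206.6 and 263.9 CPM across PT. Replicate 3 was the highest in both groups for Nkd2 (log2 fold change -1.11, SE 1.37, edgeR adjusted p = 0.836). Its log2 fold change was -4.72 without CTC replicate 3, and -2.37 with the replicate block in edgeR.

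Of the Tcf/Lef factors among the members, Tcf7 was well above the floor in every library, and Lef1 exceeded the floor of 3 counts in 3 libraries. Tcf7 (chromosome 11, 52252371 to 52283014, minus strand) measured 21.7, 35.5 and 26.4 CPM across CTC, against 26.1, 36.8 and 46.3 CPM across PT. The groups overlapped, and Tcf7 had the smallest ratio of highest to lowest library of the 7 tested members, 2.13-fold. On the log2 scale its SD was 0.36 in CTC and 0.42 in PT, while Znrf3 had lower SDs of 0.30 and 0.37. For the 500 tested genes of mean level nearest to Tcf7, the medians were 0.36 in CTC and 0.39 in PT. The means were 27.9 ± 7.0 CPM over CTC against 36.4 ± 10.1 CPM over PT (SD, n = 3 each), a log2 fold change of -0.39 (SE 0.33, edgeR adjusted p = 0.791) with an interval from -1.16 to 0.39. Lef1 (chromosome 3, 131110471 to 131224356, plus strand) had 0, 4 and 1 counts in CTC and 31, 0 and 4 counts in PT. PT replicate 1 alone held 31 of the 40 counts. Tcf7 and Lef1 are also genes of T cells. The 15 T cell markers summed to between 2.02 and 3.33 CPM in CTC and between 0.995 and 4.98 CPM in PT, less than Tcf7 in each library. For Lef1 the comparison differs, since the T cell sum of 4.98 CPM in PT replicate 1, the highest of the 6 libraries, exceeds the 1.19 CPM of Lef1 there. All 15 were in the table, and 6 of them (Cd2, Cd3d, Cd4, Cd8a, Il7r and Trbc2) had 0 counts in all 6 libraries. Lck made up 37.3% of the T cell marker counts. PT replicate 1 was also the library with the highest level of basal markers, 12 genes that summed to 7076 CPM there, against 332.1 to 1644 CPM in CTC and 609.3 and 1409 CPM in the other PT libraries. All 12 were detected, and Krt14 made up 71.2% of their counts. The 10 pan-leukocyte markers, 4 of them with 0 counts throughout (Cd48, Cd52, Laptm5 and Rac2), summed to between 0.820 and 3.51 CPM in CTC and to 16.5 CPM in PT replicate 1, against 1.93 and 0.912 CPM in PT replicates 2 and 3. Arhgdib made up 56.2% of their counts. The part of T cells in the Tcf7 counts, and of basal, T cell and leukocyte markers in the Lef1 counts, was not tested.

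**Figure D3:**
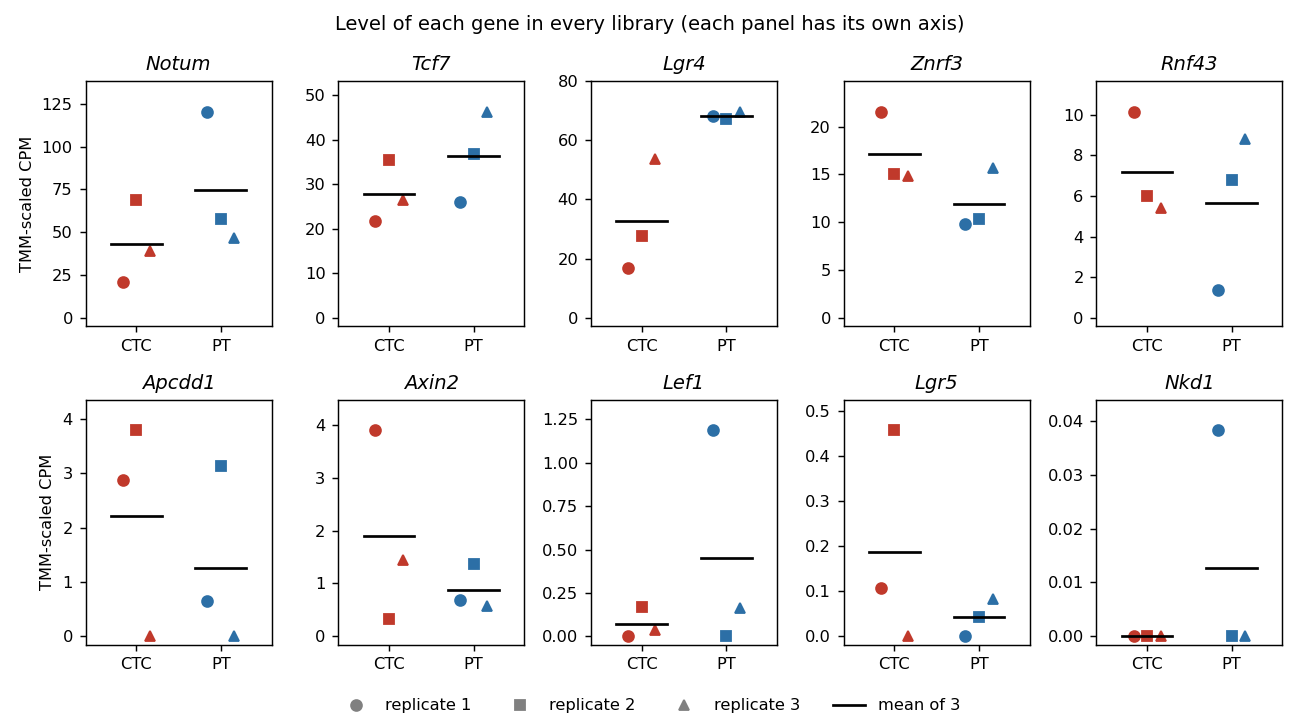
TMM-scaled CPM of each of the 10 genes in the 3 CTC libraries (red, left) and the 3 PT libraries (blue, right); each panel has its own linear axis, the shape gives the replicate and the bar is the mean of 3. Lgr4 is the 1 gene whose CTC and PT libraries do not overlap, and Apcdd1 is at 0 in replicate 3 of both groups.

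Across the libraries the members deviated in opposing directions, and the matched libraries of replicate 1 held most of the extremes. On the raw counts of all tested genes these libraries also had the highest chi-square per degree of freedom of any library pair (438). That measure grows with depth and leans on abundant genes, and these libraries had the highest totals. The share of extremes per library over all genes was not taken, so whether these extremes are particular to the members was not tested. CTC replicate 1 was the highest library for 3 of the 7 tested members (Axin2, Rnf43 and Znrf3) and the lowest for another 3 (Lgr4, Notum and Tcf7). PT replicate 1 was the lowest for Rnf43 and Znrf3 and the highest for Notum. Within pair 1, CTC minus PT on the log2 scale was 2.81 for Rnf43, 2.37 for Axin2, 2.02 for Apcdd1 and 1.13 for Znrf3, and it was -2.52 for Notum, -2.0 for Lgr4 and -0.26 for Tcf7. Pair 2 gave values closer to 0 for Rnf43 (-0.17), Notum (0.25) and Apcdd1 (0.27), and the opposite sign for Axin2 (-1.82). In pair 3, Rnf43 was at -0.70 and Axin2 at 1.21. Of the 7 tested members, the sign of pair 1 was found in all 3 pairs for Lgr4 and Tcf7 only. Taken over the 6 libraries, the root mean square difference between log2 deviations from the mean was smallest for Tcf7 and Znrf3, at 0.59. This measure is small for any genes that vary little, and their log2 ranges were 1.09 and 1.13, the smallest of the tested members. Tcf7 and Znrf3 deviated in opposite directions in CTC replicates 1 and 3 and PT replicate 2, and in the same direction in the other libraries. For Rnf43 and Znrf3, the closely related ligases, the root mean square difference was 0.70, and for Lgr4 and Notum 0.69. Axin2 was closest to Znrf3 (0.96), with Rnf43 at 1.12 and Notum at 1.71. Among 12018 protein-coding genes tested, the 5 with a profile most like that of Axin2 were Ifit2 (0.18), Ptges (0.29), Gpr137c (0.31), Arhgap26 (0.33) and Cth (0.35), and Znrf3 ranked at 2284. With 6 libraries and counts as low as 8, such likeness is a description only.

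**Figure D4:**
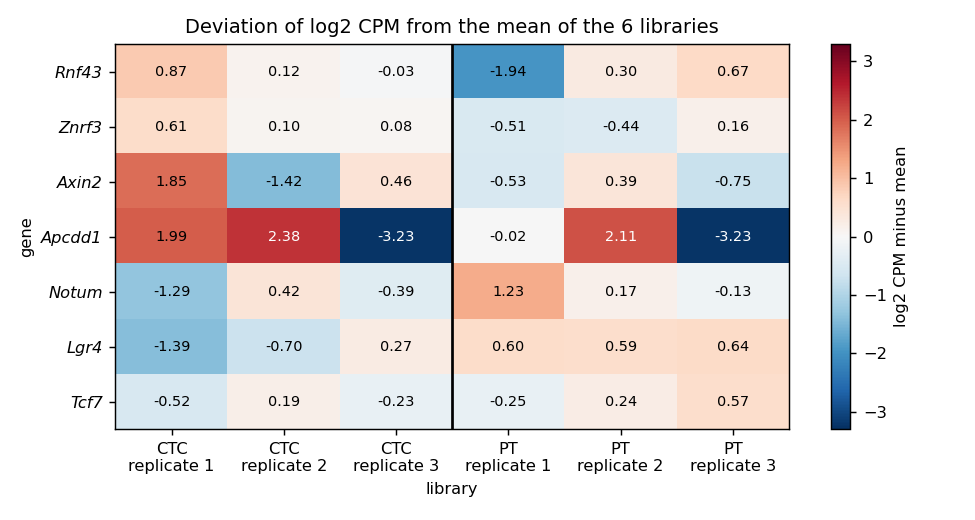
Deviation of log2 CPM from the mean of the 6 libraries for the 7 tested genes, with CTC libraries left of the line and PT libraries right of it. Rnf43, Znrf3 and Axin2 are high in CTC replicate 1, where Notum and Lgr4 are low, and Apcdd1 is at -3.23 in both libraries of replicate 3.

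The chromosomal surroundings of the members were also compared between libraries. For Axin2, Lgr4, Tcf7 and Rnf43, the 40 nearest tested genes had median deviations between -0.18 and 0.13 in every library. Those of Lgr5 on chromosome 10 deviated by 1.07 in CTC replicate 1 and by -0.76 in PT replicate 1, with a median log2 fold change of 1.03. Those of Znrf3 reached 0.33 in PT replicate 2 and -0.28 in CTC replicate 3, where Znrf3 itself deviated by -0.44 and 0.08. Those of Apcdd1 were lowest in PT replicate 1, at -0.42, where Apcdd1 itself deviated by -0.02. Neighbours of Nkd1 reached 0.40 in CTC replicate 1 and -0.35 in PT replicate 1, and those of Lef1 stayed between -0.21 and 0.27.

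The rest of the pathway was present from ligand to nucleus, and it too held no gene past the threshold in edgeR with its filter on low counts. Of 108 further pathway genes in 7 lists, 107 were in the table and 68 entered the test. edgeR called 0 of the 68, beside 0% of all genes, with 3 higher and 3 lower at an unadjusted p under 0.05. Without the filter edgeR called 199 genes over the whole table, a count whose share of the genes tested was not taken, and 2 were in these lists. They were Rspo3 (adjusted p = 0.011, higher in CTC) and Wnt10a (adjusted p = 0.00145, lower in CTC). The Wnt10a call rests on 1 library, PT replicate 1, which held 1518 of its 1530 counts. CTC and PT lay apart for 7 of the 68 (2 higher and 5 lower in CTC), or close to the 12.1% of all genes. DESeq2 called 1 of the 107, Rspo3, beside 0.631% of the genes with an adjusted p. With the block it called 6 (1 higher and 5 lower) beside 1.87%. The 107 include genes without an adjusted p, 15 of them with 0 counts in all libraries, so the 107 and these percentages have unlike bases. The median log2 fold change of the 68 was -0.01.

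Wnt7b was the ligand gene with the highest level. Of 19 Wnt ligand genes, 7 were tested, 5 of them with a negative log2 fold change and none past the threshold. Wnt7b measured 412.3, 475.1 and 140.2 CPM across CTC, against 342.3, 543.8 and 399.3 CPM across PT, and CTC replicate 3 was the low library. By the mean over all 6 libraries the next were Wnt5b and Wnt4, along with Wnt7a, which was higher than both in CTC replicates 1 and 2. Wnt5b averaged 13.3 ± 7.93 CPM over CTC against 15.2 ± 2.66 CPM over PT, and Wnt4 13.4 ± 20.8 CPM over CTC against 14.5 ± 9.18 CPM over PT (SD, n = 3 each). Wnt10a, singled out after its values were seen, had 2, 3 and 0 counts in CTC and 1518, 4 and 3 counts in PT, so nearly all of its counts were in PT replicate 1, the library with most Lef1 counts and the highest basal and leukocyte markers. Wls, which carries Wnt ligands to the cell surface, measured 197.6, 58.9 and 56.5 CPM across CTC, against 45.5, 44.4 and 40.6 CPM across PT, without overlap. Its log2 fold change was 1.26 (SE 0.50, edgeR adjusted p = 0.726), and 0.41 without CTC replicate 1. Porcn, which attaches the lipid, averaged 11.8 ± 9.01 CPM over CTC against 25.2 ± 13.8 CPM over PT (SD, n = 3 each) and passed in DESeq2 with the block (adjusted p = 0.0486).

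Rspo3, an R-spondin and thus a ligand of the Lgr receptors, had 106, 10 and 15 counts in CTC and 0, 1 and 0 counts in PT. Each CTC library was above the floor of 3 counts and each PT library was below it. The default filter of edgeR left it out. DESeq2 gave an adjusted p of 0.00809, and 0.011 with the block. Leaving out CTC replicate 1 ended the DESeq2 call (adjusted p = 0.741), as did leaving out PT replicate 1 (adjusted p = 0.116) or PT replicate 3 (adjusted p = 0.087). Rspo1, Rspo2 and Rspo4 had 1, 1 and 0 counts over all libraries. Of 17 receptor genes, 14 were tested, 6 with a positive and 8 with a negative log2 fold change, and none passed. The co-receptor Lrp5 averaged 239.8 ± 47.0 CPM over CTC against 342.4 ± 71.4 CPM over PT (SD, n = 3 each). Fzd7 had the highest mean CPM of the Frizzled genes over the 6 libraries, with 17.7, 53.0 and 205.6 CPM across CTC, against 93.1, 94.9 and 255.0 CPM across PT. Replicate 3 was the highest in both groups for Fzd7, as for Nkd2. Ptk7 and Ryk, receptors of other Wnt branches, had log2 fold changes of -0.54 and 0.08 (edgeR adjusted p = 0.772 and 0.942).

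Of 17 antagonist genes, 16 were in the table, 5 were tested and 6 had 0 counts in all libraries, Dkk1 among them. Sfrp1, a secreted Wnt antagonist, measured 50.5, 57.9 and 293.5 CPM across CTC, against 144.1, 272.5 and 520.2 CPM across PT, lower in CTC in each of the 3 pairs. Its log2 fold change was -1.22 (SE 0.76, edgeR adjusted p = 0.735), and -2.53 without CTC replicate 3, and it passed in DESeq2 with the block (adjusted p = 0.00813). The antagonist genes Kremen1 and Tpbg had log2 fold changes of 0.20 and 0.22 (edgeR adjusted p = 0.890 and 0.839). All 16 genes of the destruction complex and Dishevelled list were tested. The genes with the highest levels, Csnk1d, Tnks2, Csnk1a1 and Dvl1, had log2 fold changes of 0.03, 0.01, 0.04 and 0.09 (edgeR adjusted p between 0.964 and 0.998). The list had 11 positive and 5 negative log2 fold changes with a median of 0.04, and none passed. Beta-catenin itself, Ctnnb1, averaged 639.4 ± 45.1 CPM over CTC against 707.9 ± 253 CPM over PT (SD, n = 3 each; log2 fold change -0.15, edgeR adjusted p = 0.910). Of 13 genes for beta-catenin and its nuclear partners, 12 were tested and 2 passed in DESeq2 with the block, both lower in CTC. Pygo2 and Bcl9l, parts of the beta-catenin transcription complex, had log2 fold changes of -0.22 and -0.42 (edgeR adjusted p = 0.839 and 0.802). The genes called by DESeq2 with the block were Aes, a short member of the Groucho family (adjusted p = 0.0229), and Tcf7l1 (adjusted p = 0.0085). Tcf7l1 is the Tcf factor known mainly as a repressor. Without the block DESeq2 gave both an adjusted p of 0.563. The edgeR adjusted p was 0.733 for Aes and 0.726 for Tcf7l1. Tcf7l1 measured 4.61, 10.9 and 33.0 CPM across CTC, against 21.9, 34.8 and 63.3 CPM across PT, and Aes 16.02, 49.3 and 271.5 CPM across CTC, against 311.3, 351.1 and 257.0 CPM across PT.

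Of 20 other reported target genes, 12 were tested, 7 with a positive and 5 with a negative log2 fold change, and none passed in edgeR. The cell-cycle gene Ccnd1 averaged 589.1 ± 148 CPM over CTC against 978.6 ± 118 CPM over PT (SD, n = 3 each), without overlap (log2 fold change -0.73, SE 0.29, edgeR adjusted p = 0.726). Sox9, a progenitor transcription factor, averaged 124.7 ± 21.6 CPM over CTC against 181.3 ± 21.4 CPM over PT (SD, n = 3 each), also without overlap (edgeR adjusted p = 0.726). Myc averaged 123.5 ± 54.6 CPM over CTC against 138.1 ± 13.5 CPM over PT, and Cd44 425.7 ± 197 CPM over CTC against 298.0 ± 69.4 CPM over PT (SD, n = 3 each). Prom1 passed in DESeq2 with the block (adjusted p = 0.021), with 0, 0.833 and 23.4 CPM across CTC, against 7.77, 103.7 and 85.8 CPM across PT. Of the 20 genes, 3 had 0 counts in all libraries and 7 stayed under 1 CPM in every library.

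**Figure D5:**
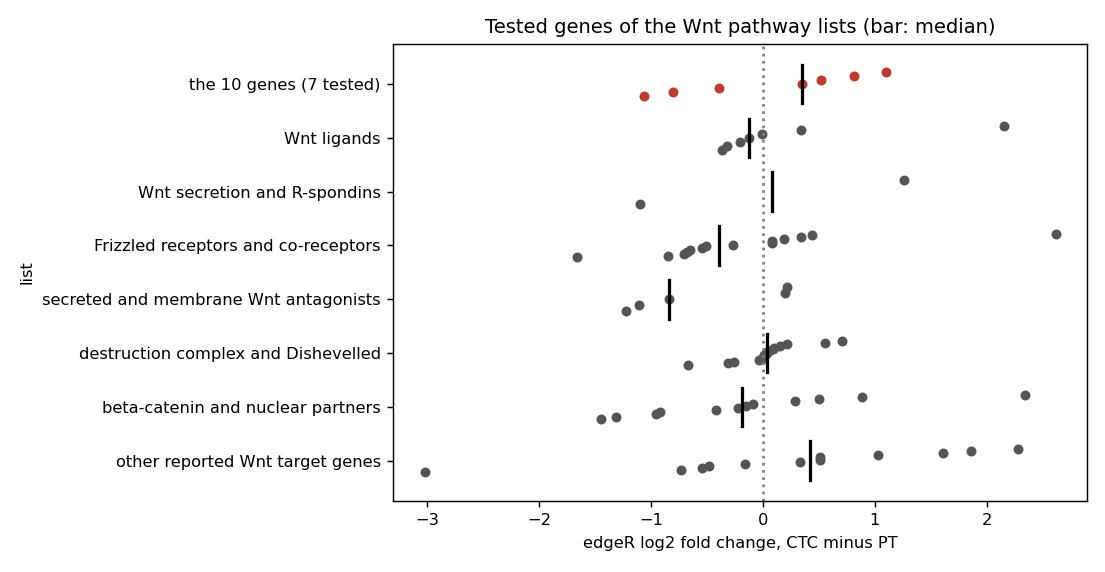
edgeR log2 fold changes, CTC minus PT, of the tested genes in each Wnt pathway list; each point is 1 gene, red for the 7 tested members and grey for the other lists, and the bar is the median. The medians lie between -0.84 for the antagonists and 0.42 for the other reported targets, and no point passed at an adjusted p under 0.05.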

How the data were processed

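RNA was measured in 6 libraries, 3 CTC and 3 PT, grouped by their labels. The authors deposited raw read counts for Ensembl genes, and 1 length in bases per gene. HISAT2 and the builds GRCm38 and mm10 are named, per the submitters' processing notes; the sources used here do not give the read counter, the strand setting or the annotation release. From these counts, edgeR (version 4.0.16, R version 4.3.3) with TMM scaling, filterByExpr by group, glmQLFit and glmQLFTest was the main test over 13874 genes, adjusted by Benjamini-Hochberg at 0.05. Log2 CPM had a prior count of 2, and each standard error was derived from its F value. Alternatives were the replicate block, RLE scaling, DESeq2 (version 1.42.0) with and without the block, limma-voom (limma version 3.58.1), a filter of 1 CPM in at least 3 libraries, omitting the filter, and leaving out each library. Leaving out each matched pair, and DESeq2 without each library for Rspo3, were added after seeing the data. The titles match same-numbered libraries, and the series design text speaks of matched mice, so the numbers were taken to pair the samples; deviations of paired libraries correlated at -0.015, 0.157 and 0.298 across genes. No 2 libraries were near sampling noise (chi-square per degree of freedom at least 100). The fits were tested on simulated data. The members and lists were chosen with earlier results of these data known. Named genes were all 10 members, up to 4 of the highest genes per list, those past a threshold, and the 5 nearest to Axin2. Tcf7l1, Prom1, Lgr6, Wnt10a, Dkk1 and the other R-spondins were added after their values were seen. Neighbours were the 20 nearest tested genes on each side.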

Additional observations from a re-analysis of the deposited data

How the results depend on the processing

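The count of 0 members called held in all alternatives run. Over all genes, 0 became 91 in DESeq2 (43 higher and 48 lower in CTC), 253 in DESeq2 with the replicate block (119 higher and 134 lower) and 199 in edgeR without a filter (121 higher and 78 lower). In the other pathway lists it became 1, 6 and 2. With the replicate block in edgeR it stayed at 0, and the block changed no call of a member. Over 16 alternatives, Lgr4 lay between -1.62 and -0.73, Tcf7 between -0.60 and -0.14, Znrf3 between 0.21 and 0.86 and Apcdd1 between 0.18 and 2.72, with no change of sign. Leaving out single libraries moved Axin2 between 0.01 and 1.59, Notum between -1.33 and -0.27 and Rnf43 between -0.12 and 0.81. Without replicate 1 of both groups Axin2 was at -0.11, Notum at 0.06 and Rnf43 at -0.43. The cause was not tested. Smallest adjusted p-values over these alternatives were 0.125 for Lgr4 and 0.443 for Znrf3. Depth limits Lgr5, Lef1 and Nkd1, for which no fold change is given. The other sign changes were in pathway genes named in the report. With single libraries left out, Wnt7b ranged from -0.65 to 0.05, Wnt5b from -0.70 to 0.18, Wnt4 from -3.41 to 0.44, Ryk from -0.11 to 0.20, Kremen1 from -0.02 to 0.44, Csnk1d from -0.08 to 0.23, Tnks2 from -0.35 to 0.68, Csnk1a1 from -0.23 to 0.34, Dvl1 from -0.17 to 0.41, Ctnnb1 from -0.32 to 0.18 and Myc from -0.38 to 0.16. Without a matched pair, the signs turned for Wnt4 (0.47), Tnks2 (-0.20), Csnk1a1 (-0.04) and Bcl9l (0.17) in replicate 1, Wnt5b (0.04), Ryk (-0.09), Csnk1d (-0.13) and Myc (0.14) in replicate 2, and Ctnnb1 (0.12) and Csnk1d (-0.00055) in replicate 3. RLE scaling put Csnk1d at -0.0031 and Tnks2 at -0.01, and DESeq2 put them at -0.0004 and -0.01.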
